A study of Homo sapiens with 4 samples.

Results

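The genes that encode the subunits of integrins and laminins were followed in RD and JR1 cells with and without depletion of SKP2. Members were taken by gene symbol alone: every integrin alpha gene (ITGA with a number, 2B, V, E, L, M, X or D), every integrin beta gene (ITGB with a number) and every laminin chain gene (LAMA, LAMB or LAMC with a number). This gave 38 of the 39323 genes in the tables, namely 18 integrin alpha, 8 integrin beta and 12 laminin genes. RD and JR1 are established lines of fusion-negative rhabdomyosarcoma, a tumor of muscle lineage cells. Both were infected with a lentivirus that carried either a hairpin against SKP2 (shSKP2), the substrate receptor of an SCF ubiquitin ligase, or a non-targeting hairpin (shSCR), and infected cells were selected with puromycin. All 4 groups therefore carry a vector and went through selection, no uninfected cells were analysed here, and a single hairpin stands for SKP2 depletion. Each of the 4 groups is 1 library of poly-A RNA, so replicate error is not known for any difference and no statistical test was run. The unit is TPM, a share of all transcripts corrected for transcript length, as estimated by the authors with RSEM. TPM keep no record of read numbers, so the depth behind each value is unknown.

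Integrins are receptors made of an alpha and a beta subunit that span the plasma membrane and tie the matrix outside the cell to actin inside it. The alpha subunit largely sets which ligand is bound, and ITGB1 pairs with most alpha subunits. Laminins are cross-shaped trimers of an alpha, a beta and a gamma chain and are the main organizers of basement membranes. In skeletal muscle the sheath around each fiber holds laminin with the LAMA2 chain, the adult fiber binds it through ITGA7 paired with ITGB1 and through dystroglycan, and ITGA6 is the laminin receptor of early muscle progenitors. Loss of LAMA2 or ITGA7 causes congenital muscle disease in humans.

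The targeted transcript SKP2 fell from 92.8 to 7.40 TPM in RD cells and from 46.5 to 2.72 TPM in JR1 cells. Short structural RNAs took 58.6% to 72.1% of the TPM of a library, and more with shSKP2 than with shSCR in each line, which leaves less of the total for all other genes. Over the 12985 genes that averaged 1 TPM or more across libraries, called the tested genes here, the median log2 change on TPM + 1 (shSKP2 over shSCR) came to -0.27 for RD and -0.21 for JR1. After those RNAs were removed and the rest was rescaled, it was 0.12 in RD and 0.01 in JR1. The lines carried the markers of their lineage. MYOD1, for example, stood at 87.0 to 131 TPM, and the 7 myogenic markers summed to 415 and 590.2 TPM in RD shSCR and shSKP2 and to 566 and 820 TPM in JR1. The largest part of this sum is CHRNA1, at 196 and 314 TPM in RD and 284 and 425 TPM in JR1. DES was at 39.3 and 43.4 TPM in RD and at 51.3 and 36.0 TPM in JR1. The part of these marker levels in the changes of the members was not tested. MYF5, 1 of these 7, was listed at 0 in every library. Markers of other cell types were mostly near 0. All 4 epithelial, all 3 endothelial and all 4 Schwann cell markers were below 1 TPM in every library. Among leukocyte markers PTPRC had at most 0.01 TPM while CD68 reached 2.87 TPM. Among platelet markers GP9 and PF4 were listed at 0 and GP1BA was at 0.78 to 1.51 TPM.

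In the control cells a pair of laminin chains led the family. LAMC1, which encodes the gamma chain of most laminins, had the highest level of all members at 163 TPM in RD shSCR and 112 TPM in JR1 shSCR, followed by LAMB1 at 130.3 and 92.6 TPM. Among integrin alpha subunits the fibronectin receptor ITGA5 was highest, at 47.9 TPM in RD shSCR and 70.4 TPM in JR1 shSCR. Among beta subunits ITGB1 led in RD (45.2 TPM) and ITGB5 in JR1 (57.8 TPM). With shSKP2, ITGA6 stood above every other integrin subunit in both lines, at 80.5 TPM in RD and 93.4 TPM in JR1. The other 19 of the 38 members averaged below 1 TPM.

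**Figure D1:**
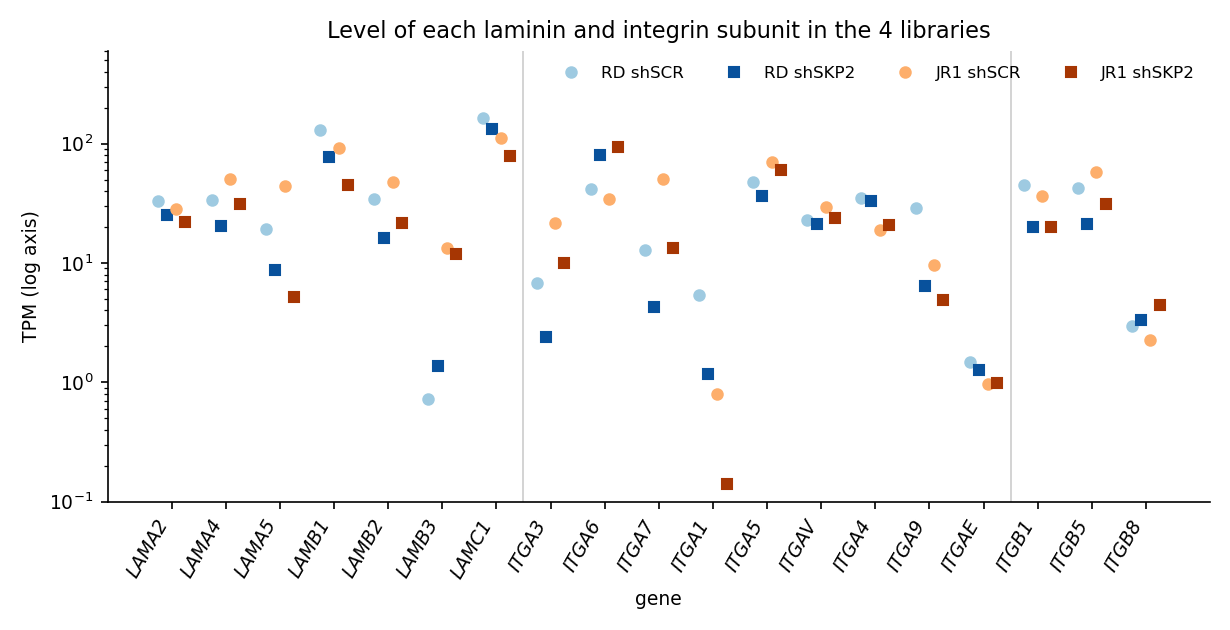
TPM on a log axis of the 19 members that averaged 1 TPM or more, 1 point per library, with circles for shSCR and squares for shSKP2 in RD (blue) and JR1 (orange and brown). Gray lines divide laminin chains, integrin alpha and integrin beta subunits; LAMC1 is highest in 3 of the 4 libraries, and ITGA6 is the only integrin subunit whose square lies far above its circle in both lines.

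After SKP2 depletion 16 of the 19 tested subunits were below 0 on the log2 scale in RD and 15 in JR1, as were 75.0% and 68.9% of all tested genes, and ITGA6 stood well above 0 in both lines. Each change is log2 of TPM + 1 with shSKP2 divided by TPM + 1 with shSCR of the same line, a scale that understates changes of genes with few TPM. A gene was said to rise or fall when it moved at least 2-fold on that scale. In RD, 7 of the 19 tested members fell (ITGA1, ITGA3, ITGA7, ITGA9, ITGB1, LAMA5 and LAMB2), where 7.37% of all tested genes fell. In RD 0 members rose, where 1.08% of all tested genes rose. In JR1, 5 of the 19 fell (ITGA3, ITGA7, LAMA5, LAMB1 and LAMB2) against 9.05% of all tested genes, and ITGA6 rose against 1.78%. ITGA3, ITGA7, LAMA5 and LAMB2 fell in both lines, as did 4.79% of all tested genes, and 0 members rose in both against 0.539%. For the 19 members the median change came to -0.71 for RD and -0.66 for JR1, which is -0.44 against the general median of either line. These counts depend on the scaling. With the structural RNAs removed, 25 members and 15218 genes averaged 1 TPM or more. On that scaling ITGA6 was past the limit in RD as well, where 4.4% of genes rose, and ITGA6 and ITGB8 rose in JR1, where 4.91% did. Then 4 of the 25 members fell in RD (ITGA1, ITGA7, ITGA9 and ITGB3) against 3.45% of genes, and 4 in JR1 (ITGA1, ITGA7, ITGB3 and LAMA5) against 7.49%.

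The laminin-binding integrin subunits showed the sharpest contrast. ITGA6 (chr2:172427336-172506459) went from 41.5 to 80.5 TPM in RD cells and from 34.3 to 93.4 TPM in JR1 cells. Its log2 change of 1.42 in JR1 was past the limit and its change of 0.94 in RD was just under it. ITGA6 ranked 169 from the highest of all tested genes in RD and 104 in JR1. Both shSKP2 libraries lie above both shSCR libraries, and the change was 1.37 in RD and 1.7 in JR1 after the structural RNAs were removed.

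ITGA7 (chr12:55684568-55716037), the laminin receptor of differentiated muscle, fell from 13.0 to 4.31 TPM in RD cells and from 50.9 to 13.3 TPM in JR1 cells. On the log2 scale this is -1.39 for RD and -1.86 for JR1. Among the 19 members it was the only one that fell at least 2-fold in both lines under all 3 scalings, at -1.11 and -1.65 with the structural RNAs removed. The span of ITGA7 overlaps those of METTL7B, at 2.19 to 6.6 TPM, and BLOC1S1-RDH5, at 1.33 to 2.41 TPM. How reads were divided among these genes was not examined. ITGA3 (chr17:50056065-50090481), which binds laminins with the LAMA3 and LAMA5 chains, fell from 6.81 to 2.42 TPM in RD cells and from 21.8 to 10.0 TPM in JR1 cells. Its changes of -1.19 and -1.05 came to -0.98 and -0.84 with the structural RNAs removed, under the limit in each line. The 3 receptors thus did not shift together, and ITGA7 and ITGA3 stand higher in JR1 shSCR than in either RD library.

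TPM of different genes can be compared within a library, and such a comparison does not depend on how the library is scaled. Of the TPM summed over ITGA3, ITGA6 and ITGA7, ITGA6 made up 67.7% in RD shSCR and 92.3% in RD shSKP2. In JR1 it made up 32.0% with shSCR and 80.0% with shSKP2. ITGA7 went from 21.2% to 4.94% of this sum in RD and from 47.6% to 11.4% in JR1, so that the highest of these 3 transcripts in JR1 was ITGA7 in the control and ITGA6 after depletion. The ratio of ITGA6 to ITGA7 was 3.20 in RD shSCR, 18.7 in RD shSKP2, 0.674 in JR1 shSCR and 7.01 in JR1 shSKP2. The sum itself was 61.2 and 87.2 TPM in RD and 106.9 and 117 TPM in JR1. These sums were drawn up after the values had been seen.

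The promoters of ITGA6 and LAMA5, the genes with the highest change and the lowest change in JR1 among the members, are shown because MYOD, the myogenic factor expressed in these lines, binds E-boxes (CANNTG, a pattern that is its own reverse complement). The 250 bases before the start are from RefSeq (GRCh38.p14), 5′ to 3′ on the strand of the gene, with E-boxes in capitals and adjoining E-boxes run together. The window of ITGA6 is chr2:172427086-172427335 on the plus strand and that of LAMA5 is chr20:62367313-62367562 on the minus strand.
ITGA6: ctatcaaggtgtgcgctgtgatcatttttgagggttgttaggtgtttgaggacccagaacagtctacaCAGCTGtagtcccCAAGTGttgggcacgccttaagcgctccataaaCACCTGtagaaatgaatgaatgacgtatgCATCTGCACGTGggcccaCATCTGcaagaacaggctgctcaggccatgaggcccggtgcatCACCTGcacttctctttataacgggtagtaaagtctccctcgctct
LAMA5: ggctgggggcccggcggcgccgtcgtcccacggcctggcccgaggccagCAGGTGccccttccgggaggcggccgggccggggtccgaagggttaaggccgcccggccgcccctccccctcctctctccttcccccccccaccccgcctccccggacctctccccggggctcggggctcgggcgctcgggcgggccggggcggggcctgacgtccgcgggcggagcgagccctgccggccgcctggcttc
The ITGA6 window holds 7 E-boxes, of which 1 is CAGCTG, the rest being other forms of the motif. At least 7 E-boxes were found in 0.128% of 35116 promoter windows of this length, at least 1 in 61.8%, and CAGCTG in 14.0%. A second ITGA6 start in the same table, with its window at chr2:172427336-172427585, holds 2 E-boxes, where 28.3% of windows hold at least 2. Gene-level TPM do not tell which start was used. The LAMA5 window holds 1 E-box and 5 copies of GGGCGG (either strand), a word of which 42.6% of windows hold at least 1 copy. Of the 33 windows of members, 18 hold at least 1 E-box. Windows were matched for 26 of the 38 members, and both genes were picked after their changes were known. A word in a promoter is a description of the sequence and not a binding site; no binding data were used.

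Among the laminin alpha chains LAMA5 (chr20:62309060-62367318) changed most. LAMA5, a chain of many adult basement membranes, fell from 19.4 to 8.66 TPM in RD cells and from 44.0 to 5.16 TPM in JR1 cells. This is a log2 change of -1.08 for RD and -2.87 for JR1, where it ranked 41 from the lowest of all tested genes. JR1 shSCR has the highest and JR1 shSKP2 the lowest of the 4 values, and the difference between the changes of the lines was -1.79, which could not be tested. With the structural RNAs removed the LAMA5 change was -0.72 in RD, under the limit, and -2.76 in JR1. LAMA4, a chain of vessel and early muscle basement membranes, went from 33.9 to 20.4 TPM in RD cells and from 50.9 to 31.0 TPM in JR1 cells, with changes of -0.71 and -0.70. LAMA2, the chain of the muscle fiber sheath, went from 32.8 to 25.2 TPM in RD cells and from 28.6 to 21.9 TPM in JR1 cells. Its changes were -0.37 and -0.37, or -0.10 and -0.16 against the general median, and with the structural RNAs removed it stood at 0.04 in RD and -0.12 in JR1. As shares of all alpha chain TPM, LAMA5 went from 22.4% to 15.9% in RD and from 35.2% to 8.76% in JR1, and LAMA2 from 37.8% to 46.2% and from 22.9% to 37.1%. LAMA1, the embryonic chain, had at most 1.51 TPM and LAMA3, an epithelial chain, at most 0.28 TPM.

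Of the common beta and gamma chains, LAMB2 fell in both lines and LAMB1 in JR1, while LAMC1 stayed under the limit. LAMB2 (chr3:49121114-49133066), the beta chain found at the neuromuscular synapse, fell from 34.3 to 16.1 TPM in RD cells and from 47.4 to 21.8 TPM in JR1 cells. Its changes were -1.05 in RD and -1.08 in JR1, and -0.66 and -0.85 with the structural RNAs removed. A pseudogene copy, LAMB2P1, had at most 1 TPM, and how reads were divided between it and LAMB2 was not tested. LAMB1 (chr7:107923799-108003176), the most abundant beta chain, went from 130.3 to 76.6 TPM in RD cells, a change of -0.76, and fell from 92.6 to 45.4 TPM in JR1 cells, a change of -1.01. With the structural RNAs removed its changes were -0.34 in RD and -0.76 in JR1, under the limit in each line. LAMC1 (chr1:183023420-183145592) went from 163 to 131 TPM in RD cells and from 112 to 78.4 TPM in JR1 cells, with changes of -0.31 and -0.51. The removal of structural RNAs turned the RD value to 0.11 and left -0.25 in JR1. LAMC1 made up 99.0% to 99.6% of gamma chain TPM.

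LAMB3 behaved unlike the other beta chains and set the lines apart. LAMB3 is a chain of epithelial laminin, where LAMA3 is its alpha chain partner. LAMB3 stood at 0.73 TPM in RD shSCR and 1.38 TPM in RD shSKP2, and at 13.4 and 11.95 TPM in JR1, so the lines do not overlap. The change within RD was 0.46 and that within JR1 was -0.16. LAMA3 was not at that level in JR1, where it had 0.04 and 0.03 TPM.

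The collagen receptor ITGA1 and the tenascin and osteopontin receptor ITGA9 fell in RD. ITGA1 (chr5:52787916-52959209) fell from 5.40 to 1.18 TPM in RD cells, a log2 change of -1.55. In JR1 it went from 0.80 to 0.14 TPM, a change of -0.66 on TPM + 1 that becomes -1.91 when 0.1 is added in place of 1. The gene PELO, whose span overlaps that of ITGA1, went from 12.7 to 9.50 TPM in RD cells and from 9.33 to 5.94 TPM in JR1 cells. How the estimates divided reads between overlapping genes is not given in the sources used here. ITGA9 (chr3:37452141-37823507) fell from 29.1 to 6.38 TPM in RD cells, a change of -2.03 and the lowest of any member in that line, and went from 9.67 to 4.94 TPM in JR1 cells, a change of -0.84. ITGA4, the nearest relative of ITGA9 among the alpha subunits, went from 35.0 to 33.0 TPM in RD cells and from 19.0 to 20.8 TPM in JR1 cells, so ITGA4 and ITGA9 were at like levels in RD shSCR and differed 5.18-fold in TPM in RD shSKP2.

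The tested alpha subunits that bind the RGD motif, found in fibronectin and vitronectin, moved little. This does not extend to their beta partners, which are given below. ITGA5 (chr12:54395261-54419266) went from 47.9 to 36.5 TPM in RD cells and from 70.4 to 60.2 TPM in JR1 cells, with changes of -0.38 and -0.22 that became 0.03 and 0.04 with the structural RNAs removed. ITGAV went from 22.7 to 21.2 TPM in RD cells and from 29.3 to 23.9 TPM in JR1 cells, with changes of -0.09 and -0.29, and 0.32 and -0.03 with the structural RNAs removed. ITGAE, an alpha subunit of lymphocytes, was the only leukocyte-type member past the filter on low values, at 0.96 to 1.49 TPM. Its span holds HASPIN, a mitotic kinase gene that went from 13.6 to 7.53 TPM in RD cells and from 6.22 to 2.69 TPM in JR1 cells, and overlaps NCBP3 at 6.46 to 14.0 TPM, so the source of these few ITGAE TPM is uncertain.

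Among the beta subunits ITGB1 and ITGB5 were lower while ITGB8 was not. ITGB1 (chr10:32900318-32958230), the partner of ITGA1, ITGA3, ITGA6 and ITGA7, fell from 45.2 to 20.2 TPM in RD cells, a change of -1.13, and went from 36.2 to 19.9 TPM in JR1 cells, a change of -0.83. Its RD change was -0.73 with the structural RNAs removed. ITGB5 (chr3:124761948-124901418), a partner of ITGAV, went from 42.3 to 21.1 TPM in RD cells and from 57.8 to 31.2 TPM in JR1 cells, with changes of -0.97 and -0.87, the first just under the 2-fold limit. For both genes each shSKP2 library lies below each shSCR library. ITGB8, a partner of ITGAV that takes part in activation of latent TGF-beta, went from 2.99 to 3.34 TPM in RD cells and from 2.27 to 4.41 TPM in JR1 cells, with changes of 0.12 and 0.73. Since ITGA6 and its main partner moved apart, the ratio of ITGA6 to ITGB1 was 0.917 in RD shSCR and 3.99 in RD shSKP2, and 0.947 in JR1 shSCR and 4.70 in JR1 shSKP2. ITGB4, the other partner of ITGA6, was at 0.26 to 0.54 TPM.

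The 19 members under the filter had at most 1.91 TPM in any library. Among them ITGB3, ITGB6 and LAMA1 reached 1 TPM in at least 1 library, and 15 members did not. ITGB3, a partner of ITGAV, went from 0.78 to 0.11 TPM in RD cells and from 1.84 to 0.41 TPM in JR1 cells, and ITGB6, an epithelial partner of ITGAV, from 0.06 to 0.35 TPM and from 1.07 to 1.91 TPM. ITGA8 and ITGAD were listed at 0 in every library. Low members also included ITGA2, ITGA2B, ITGA10, ITGA11, ITGAL, ITGAM, ITGAX, ITGB2, ITGB4, ITGB7, LAMA3, LAMB4 and LAMC3, which include most of the receptors of leukocytes and platelets. ITGA10 was the highest of these, at 0.97 TPM in RD shSCR. No change is read from the low members on TPM as deposited. With the structural RNAs removed some of them, such as ITGB3, ITGB6 and LAMA1, passed the filter and entered the counts for that scaling.

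The control cells of the lines, the same libraries that serve as controls above, differed in several subunits. Of the 19 members, ITGA1 and ITGA9 were at least 2-fold higher in RD shSCR than in JR1 shSCR, where 6.5% of all tested genes were higher, and ITGA3, ITGA7, LAMA5 and LAMB3 were lower, where 3.45% of all tested genes were lower. The log2 difference of RD shSCR over JR1 shSCR was 1.83 for ITGA1, 1.5 for ITGA9, -1.14 for LAMA5, -1.55 for ITGA3, -1.89 for ITGA7 and -3.06 for LAMB3. RD shSCR was thus richer in the collagen receptor ITGA1 and the tenascin receptor ITGA9, and JR1 shSCR in the laminin receptors ITGA3 and ITGA7. ITGA6 differed by 0.27, close to the median of all tested genes, which was 0.23. With the structural RNAs removed ITGB3, ITGB6 and LAMA1 passed the filter and were also lower in RD, which made 7 of 25, where 6.99% of genes were lower.

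Other genes of the adhesion pathway were read from 3 lists, whose counts stand against the 7.37% of all tested genes that fell in RD and 9.05% in JR1. Of 35 tested adaptors and signalling genes that act under integrins, 6 fell in RD and 3 in JR1 and 0 rose in either line, with median changes of -0.46 and -0.34 where all tested genes had -0.27 and -0.21. The JR1 count is thus near the share of all genes, and the medians were -0.064 and -0.088 with the structural RNAs removed. VCL (vinculin, which links talin to actin) fell from 188 to 60.2 TPM in RD cells and from 128 to 45.9 TPM in JR1 cells, changes of -1.62 and -1.46 and the lowest of the list in each line. FERMT2, a kindlin that activates integrins, fell from 22.1 to 10.1 TPM in RD cells and from 23.2 to 8.77 TPM in JR1 cells. ARHGEF7, a guanine nucleotide exchange factor of focal adhesions, had the highest values at 0.31 and 0.53, under the limit. The core kinases stayed under the limit, with changes of -0.46 in RD and -0.31 in JR1 for PTK2 (focal adhesion kinase) and of -0.75 and -0.48 for ILK.

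Of 18 tested matrix ligands other than laminins, 5 fell in RD and 10 in JR1, with medians of -0.81 and -1.09, and -0.47 and -0.92 with the structural RNAs removed. Genes whose products sit beside laminin in basement membranes were among those that fell in both lines: HSPG2 (perlecan) at -1.11 in RD and -1.39 in JR1, AGRN (agrin) at -1.34 and -1.46, and COL4A2 (a collagen IV chain) at -1.05 and -1.05. SPP1 (osteopontin), a ligand of ITGA9 and ITGAV, fell by 1.22 in RD and 1.29 in JR1 on the log2 scale. COL15A1 was the lowest of the list in JR1 at -1.87. NPNT (nephronectin) was the exception. It went from 1.11 to 2.65 TPM in RD cells, a change of 0.79, and rose from 4.74 to 23.6 TPM in JR1 cells, a change of 2.10, while its receptor subunit ITGA8 was listed at 0.

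Of 16 tested laminin receptors and partners outside the integrin family, 4 fell in RD and 5 in JR1, with medians of -0.66 and -0.59, and -0.20 and -0.22 with the structural RNAs removed. CD151, CD9 and CD82, tetraspanins that sit beside laminin-binding integrins in the membrane, fell in both lines. CD82 had the lowest values of the list, at -1.41 in RD and -2.07 in JR1, and went from 24.9 to 8.76 TPM and from 55.5 to 12.5 TPM. DMD (dystrophin) fell from 17.3 to 7.41 TPM in RD cells and from 13.4 to 5.23 TPM in JR1 cells. DAG1 (dystroglycan), the other main laminin receptor of muscle, went from 58.3 to 32.1 TPM in RD cells and from 55.8 to 39.8 TPM in JR1 cells, changes of -0.84 and -0.48 that did not reach the limit. SGCD (delta-sarcoglycan) rose in JR1 by 1.02 on the log2 scale and had a change of 0.21 in RD, and SDC4 (syndecan) had the highest value in RD at 0.65. With the structural RNAs removed only VCL and CD82, of the 10 genes of these lists that fell in both lines, still did so.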

How the data were processed

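The authors extracted RNA from RD and JR1 cells, made directional libraries from poly-A RNA, aligned read pairs to GRCh38 with STAR 2.7.9a and estimated expression with RSEM 1.3.2. The deposited values are TPM per gene with 2 decimals. Whether strand was used in counting is not given in the sources used here.

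TPM were used as deposited. Tested genes are those that averaged 1 TPM or more across libraries, and a gene was called when TPM + 1 differed at least 2-fold. With 1 library per group no test was run, so calls have no error attached. All members (by symbol) entered the counts, and 1 item is not reported here by name. The genes named from the 3 pathway lists are those called in both lines, the highest and lowest of each list, and PTK2, ILK and DAG1, which were chosen after their values were seen. The members and lists were chosen with earlier results of these data known.

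The calls were repeated with 0.1 TPM added in place of 1, with changes taken against the general median (centring), with 3014 short structural RNA genes removed by symbol (7SL, 7SK, RMRP, RPPH1, spliceosomal, nucleolar, transfer, micro and similar RNAs) with rescaling, with every gene above 0 TPM, with a floor of 5 TPM on the mean, and with a limit of 1.5-fold. Promoter windows came from RefSeq (GRCh38.p14). The code was tested on simulated data. Python 3.11.15, numpy 2.4.6, pandas 2.3.3 and matplotlib 3.10.9 were used.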

Additional observations from a re-analysis of the deposited data

Results flagged for a closer look

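3 of the 19 members had changes of opposite sign in the 2 lines, and this difference was not tested, since there is 1 library per condition. For ITGA4 the log2 changes were -0.080 (RD) and 0.13 (JR1), for ITGAE -0.13 and 0.015, and for LAMB3 0.46 and -0.16. All of these are under the 2-fold limit. With the structural RNAs removed each of the 3 genes was above 0 in both lines, at 0.34 and 0.39 for ITGA4, 0.15 and 0.22 for ITGAE, and 0.98 and 0.09 for LAMB3.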

How the results depend on the processing

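Each comparison sets 1 library against 1. A fit of condition with the line as a block, which would treat the 2 lines as replicates and leave 1 residual degree of freedom, was not run. Depth is unknown, so the precision of low TPM cannot be given. The number of members that fell in RD was 7, but 3 after centring, 4 with structural RNAs removed and 10 with the 1.5-fold limit. In JR1 it was 5, but 2 after centring and 10 with the 1.5-fold limit. The number that rose in RD was 0, but 1 after centring, 2 with structural RNAs removed and 1 with the 1.5-fold limit; in JR1 it was 1, but 2 with structural RNAs removed and 2 with the 1.5-fold limit. Between the control libraries 2 members were higher in RD, but 1 with a minimum mean of 5 TPM, and 4 were lower, but 7 with structural RNAs removed. The median change of the members was -0.71 in RD, and -0.44 after centring, -0.19 with structural RNAs removed and -0.21 over all genes above 0 TPM. In JR1 it was -0.66, and -0.44, -0.44 and -0.20 under the same settings and -0.77 with a minimum mean of 5 TPM. The median of RD over JR1 controls was 0.19, and -0.043 after centring, -0.34 with structural RNAs removed, -0.014 over all genes above 0 TPM and -0.40 with a minimum mean of 5 TPM. A pseudocount of 0.1 TPM moved none of these counts by over 1.5 times, and among single members it put ITGA1 in JR1 past the limit. No called member changed sign under any of the scalings or that pseudocount. Shares of integrin subunits within a class moved by less than 1 percentage point without the subunits of leukocytes and platelets, which hold few TPM. Laminin shares could not move, since no laminin gene was left out.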

Other observations

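Ratios between partner chains within a library, which do not depend on its scaling, were computed after the values had been seen. The ratio of LAMC1 to LAMB1, chains of the same trimers, was 1.25 in RD shSCR and 1.21 in JR1 shSCR, and 1.72 in RD shSKP2 and 1.73 in JR1 shSKP2. LAMB1 over LAMB2 went from 3.8 to 4.77 in RD and from 1.95 to 2.08 in JR1. ITGAV over ITGB5 went from 0.538 to 1.01 in RD and from 0.507 to 0.765 in JR1. Sums over the family, unlike these ratios, depend on how the library is scaled. Integrin beta TPM went from 91.9 to 45.4 in RD and from 99.9 to 58.3 in JR1. Integrin alpha TPM went from 204 to 188 and from 238 to 229, sums in which the part of ITGA6 grew. ITGA6 made up 20.3% of the alpha sum in RD shSCR and 42.9% in RD shSKP2, and 14.4% and 40.9% in JR1. Each value comes from 1 library and has no error.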
